A study of Mus musculus with 16 samples.

Results

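Thrombomodulin and 8 other genes that start, restrain or follow blood clotting were examined in mouse epidermis: Thbd, Procr, F3, Tfpi, Tfpi2, Plau, Plat, Plaur and Serpinb2. They are 9 of the 49585 genes in a table of RNA sequencing counts, and all 9 were found in it by their Ensembl identifiers. The set was chosen by these names with earlier results of the same libraries in view, and Thbd was selected on its low level in knockout epidermis after ultraviolet B (UVB). The exposed knockout and control values of Thbd are therefore given as a description with no test.

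The libraries came from epidermis, isolated by heat shock, of SKH-1 mice 8 to 12 weeks old. SKH-1 mice are hairless and widely used to study how ultraviolet light harms skin. The 4 groups of 4 libraries were epidermal C/EBPB knockout 6 h after 100 mJ/cm2 of UVB (titled C/EBPB -/-_UVB), K5Cre control 6 h after the same dose (K5Cre_UVB), unexposed C/EBPB knockout (C/EBPB -/-), and unexposed K5Cre control (K5Cre). C/EBPB, encoded by Cebpb, is a leucine zipper transcription factor. K5Cre is a Cre recombinase driven by the keratin 5 promoter, which is active in basal keratinocytes, and the control mice are labelled with this transgene too. Cebpb itself averaged 1.93 ± 1.07 CPM in exposed knockout and 291 ± 28.6 CPM in exposed control epidermis, and 0.574 ± 0.297 CPM in unexposed knockout against 166 ± 13.7 CPM in unexposed control epidermis (SD, n = 4 each). The libraries held 32.98 to 53.3 M counts. CPM are each gene's counts scaled to a common library size, with totals corrected by trimmed mean of M-values (TMM). All 10 keratinocyte markers looked at averaged at least 1 CPM in every group, and some differed in level between the exposed groups, as given below.

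Tissue factor, encoded by F3, is the membrane protein that starts clotting when it binds factor VIIa, and tissue factor pathway inhibitor (Tfpi) blocks that complex. Thrombomodulin (Thbd) is a membrane receptor that binds thrombin and turns it to the activation of protein C, which the endothelial protein C receptor (Procr) presents to the complex. Activated protein C then limits clotting. Urokinase (Plau) and tissue plasminogen activator (Plat) cut plasminogen to plasmin, the protease that dissolves fibrin. The urokinase receptor (Plaur) holds urokinase at the cell surface, and plasminogen activator inhibitor 2 (Serpinb2) inhibits both activators. Keratinocytes are known to make tissue factor, thrombomodulin, urokinase and Serpinb2, and urokinase and its receptor are known from the migrating keratinocytes of wounds.

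The genes lie apart in the genome, at these positions in GENCODE M21 (GRCm38). Thbd is a single exon of 3723 bases on the minus strand at chr2:148404466-148408188, and Procr is on the plus strand of the same chromosome at chr2:155751117-155755471. Tfpi is at chr2:84432855-84476775 on the minus strand and Tfpi2 at chr6:3962595-3988919 on the minus strand. F3 is at chr3:121723537-121735048, Plau at chr14:20836660-20843385, Plat at chr8:22757727-22782844, Plaur at chr7:24462484-24475968 and Serpinb2 at chr1:107511423-107535478, all 5 on the plus strand. In this annotation Serpinb2 alone of the 9 shares exon bases with another gene, 291 bases with Serpinb10 on the same strand.

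RefSeq promoter windows (GRCm38.p6), which run from 250 bases before to 50 after each transcript start, were matched for 6 of the 9 genes by symbol. The sequences below are those of the 4 genes whose levels moved with UVB in both genotypes in the tests that follow and that have a window. Capitals mark matches, on either strand, to the AP-1 motif TGANTCA and to the C/EBP motif TTGCNNAA. Each is written 5′ to 3′ on its gene's strand, the plus strand in all 4.
Procr, chr2:155750967-155751266: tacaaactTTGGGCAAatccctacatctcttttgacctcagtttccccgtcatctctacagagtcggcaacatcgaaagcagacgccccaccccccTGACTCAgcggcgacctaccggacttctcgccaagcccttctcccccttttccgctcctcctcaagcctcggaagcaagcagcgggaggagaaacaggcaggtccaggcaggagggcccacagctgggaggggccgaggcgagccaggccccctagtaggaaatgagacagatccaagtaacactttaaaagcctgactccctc
Plaur, chr7:24462233-24462532: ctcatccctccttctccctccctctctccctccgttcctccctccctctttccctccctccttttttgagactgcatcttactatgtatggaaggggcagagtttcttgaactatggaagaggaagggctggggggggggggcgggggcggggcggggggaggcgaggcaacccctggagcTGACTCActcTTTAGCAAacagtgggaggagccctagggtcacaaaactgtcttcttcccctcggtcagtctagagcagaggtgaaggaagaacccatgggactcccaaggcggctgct
Serpinb2, chr1:107511173-107511472: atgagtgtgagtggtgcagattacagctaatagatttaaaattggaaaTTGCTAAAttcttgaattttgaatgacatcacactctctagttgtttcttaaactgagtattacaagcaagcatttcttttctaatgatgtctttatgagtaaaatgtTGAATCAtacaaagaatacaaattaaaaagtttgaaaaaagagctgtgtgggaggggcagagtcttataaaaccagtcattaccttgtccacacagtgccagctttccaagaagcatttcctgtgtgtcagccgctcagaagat
F3, chr3:121723287-121723586: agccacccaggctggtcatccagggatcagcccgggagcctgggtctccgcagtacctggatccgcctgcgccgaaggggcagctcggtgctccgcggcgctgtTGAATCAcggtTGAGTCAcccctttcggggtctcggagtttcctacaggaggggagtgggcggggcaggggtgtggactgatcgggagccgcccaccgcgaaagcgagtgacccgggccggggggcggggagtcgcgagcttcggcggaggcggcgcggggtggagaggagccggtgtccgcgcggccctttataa

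The window of Procr held 1 AP-1 match, TGACTCA, beginning at -154 from the start, and 1 C/EBP match at -242. That of Plaur held the same AP-1 letters at -69 and a C/EBP match at -59, so the 2 matches lay side by side. Serpinb2 had an AP-1 match, TGAATCA, at -94, a C/EBP match at -202 and a TATA box at -29. A second window of Serpinb2, from a start further downstream, held the same AP-1 match and a C/EBP match at -19. F3 had 2 AP-1 matches, TGAATCA at -146 and TGAGTCA at -135, and no C/EBP match. In all, 5 of the 6 genes with a window had an AP-1 match in at least 1 window (the fifth was Tfpi2, in 1 of its windows, at -77) and 3 had a C/EBP match. Of all 32851 promoter windows of the same length, 7.81% held the AP-1 letters and 10.8% the C/EBP letters. These shares are per window, whereas the counts above are per gene, and the 6 genes had 10 windows, so the 2 are not on 1 scale. The CRE motif TGACGTCA, held by 1.79% of all windows, and the NF-kB motif GGGANNTCC, held by 4.3%, had no match in the windows of the 6 genes. The TATA box letters TATAAA, held by 13.6%, were matched in windows of F3, Tfpi and Serpinb2. The match of Serpinb2 at -29 was on the gene's strand. Those of F3, at +44 and so after the start, and of Tfpi, at -127, were on the opposite strand. These matches describe the letters only, and the data hold no measure of binding.

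Thbd, which encodes thrombomodulin, was high in 1 group alone. Its levels in exposed knockout epidermis were 0.310, 0.302, 1.41 and 1.58 CPM, against 15.7, 50.9, 17.2 and 13.6 CPM in exposed control epidermis. In unexposed epidermis they were 0.163, 0.318, 0.905 and 0.500 CPM in the knockout, against 0.483, 1.79, 2.73 and 1.80 CPM in the control. The 4 exposed control libraries stood above the other 12, and the knockout and control groups overlapped when unexposed. The counts behind these levels were 16 to 74 per exposed knockout library, 390 to 2224 per exposed control library, 10 to 45 per unexposed knockout library and 22 to 99 per unexposed control library.

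Thbd averaged 0.900 ± 0.689 CPM in exposed knockout and 24.3 ± 17.8 CPM in exposed control epidermis, and 0.472 ± 0.320 CPM in unexposed knockout and 1.70 ± 0.924 CPM in unexposed control epidermis (SD, n = 4 each). Its mean was highest in exposed control, then in unexposed control, exposed knockout and unexposed knockout epidermis. Neighbours in this order after the first overlapped in their libraries: unexposed control with exposed knockout, and exposed knockout with unexposed knockout. The level of Thbd was 27.1-fold lower in exposed knockout than in exposed control epidermis by the fitted log2 fold change of -4.76 (SE 0.74), the contrast on which the gene was selected. The fitted log2 fold change of Thbd with UVB was 0.94 (SE 0.71) in knockout epidermis and 3.85 (SE 0.71) in control epidermis, where the exposed level was 14.4-fold higher. The knockout response minus the control response was -2.90 (SE 0.97) on the log2 scale. Without exposed control replicate 2, the library with 50.9 CPM, the 27.1-fold difference became 16.9-fold, the 14.4-fold difference 8.75-fold, and the difference of responses -2.24. These values carry no test, because they rest on the exposed libraries that selected the gene.

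The contrast of Thbd that was not used to select it is that of unexposed knockout against unexposed control epidermis. Its log2 fold change there was -1.86 (SE 0.71), and it did not pass the threshold of 0.05 by edgeR's quasi-likelihood test with Benjamini-Hochberg adjustment over 17741 genes (adjusted p = 0.248, unadjusted p = 0.0191). In bulk epidermis, fewer cells of a type and less RNA per cell cannot be told apart. The labels do not say that the libraries of a group are from separate animals, so the p-values weigh differences against the spread of these libraries alone, which may be technical.

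**Figure D1:**
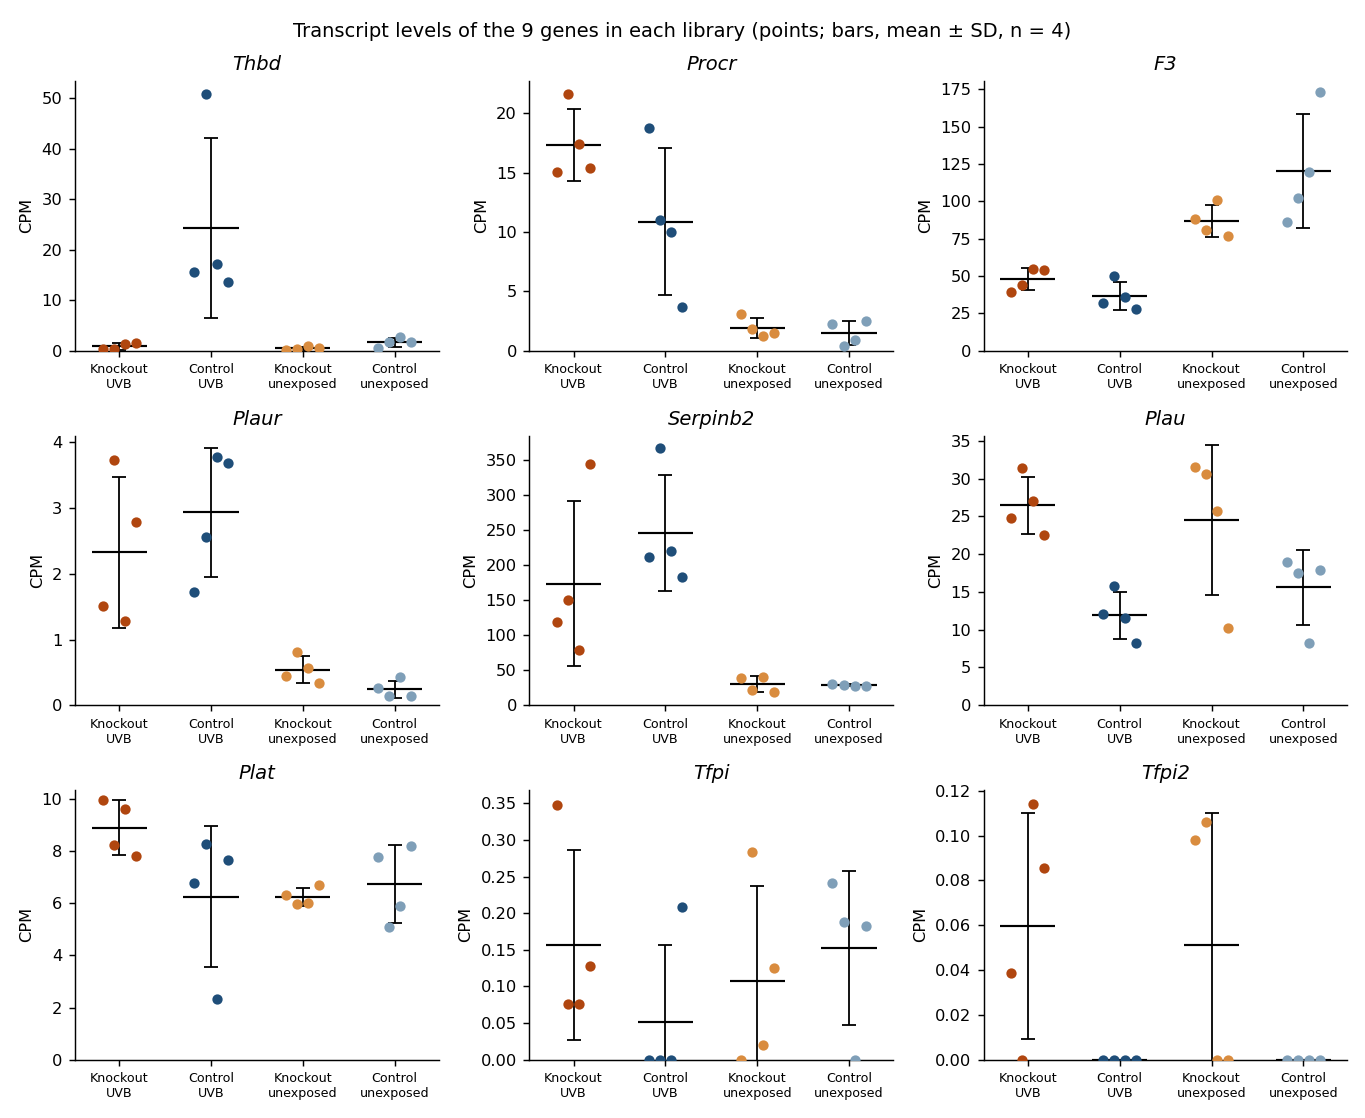
Level of each of the 9 genes in CPM (y axis, linear, its own scale per gene) in the 4 groups, with exposed groups left of unexposed ones; points are libraries, lines and bars the mean ± SD (n = 4). Thbd reached 13.6 to 50.9 CPM in exposed control libraries and stayed at or under 2.73 CPM in the other 12, while Procr, Plaur and Serpinb2 were high in both exposed groups and F3 was low in both.

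Thrombomodulin is best known from endothelium, and monocytes make it as well, so the markers of these cells were read beside it. The 12 endothelial markers summed to 31.3 to 50.2 CPM in exposed knockout libraries and 9.91 to 29.6 CPM in exposed control libraries. Unexposed libraries held 51.1 to 77.4 CPM of them in the knockout and 21.9 to 30.1 CPM in the control. Most of this sum was Flt1, which averaged 36.5 CPM in exposed knockout and 12.8 CPM in exposed control epidermis, the opposite order to Thbd. Without Flt1 the other 11 markers summed to 3.17 to 4.61 CPM in exposed knockout and 3.41 to 9.18 CPM in exposed control libraries, so the groups overlapped, and their mean sum was 3.79 CPM in the knockout and 5.46 CPM in the control, the order of Thbd. Cdh5, Kdr, Egfl7 and Emcn, which define endothelium, had 0 counts in all exposed control libraries, where Thbd was highest. Means of 4 markers went the way of Thbd. Pecam1 was at 0.547 to 1.85 CPM in exposed knockout and 2.13 to 2.47 CPM in exposed control libraries. Tek averaged 0.520 CPM in exposed knockout and 1.28 CPM in exposed control epidermis, Tie1 0.706 CPM in the knockout and 1.02 CPM in the control, and Erg 0.114 CPM in the knockout and 0.515 CPM in the control, and these 3 overlapped between the groups.

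The 12 monocyte and macrophage markers summed to 52.96 to 62.2 CPM in exposed knockout and 42.4 to 66.5 CPM in exposed control libraries. Itgam had 0 counts in every library. Most of these sums was Cd68 and Csf1r, which went opposite ways. Cd68 averaged 21.98 CPM in exposed knockout and 29.6 CPM in exposed control epidermis, the order of Thbd, and the groups overlapped. Csf1r was at 20.8 to 29.4 CPM in exposed knockout and 9.62 to 17.4 CPM in exposed control libraries, the opposite order without overlap. The sums of the 10 neutrophil markers were 25.9 to 44.8 CPM in exposed knockout and 15.6 to 36.9 CPM in exposed control libraries. They were mostly Cxcr2, which averaged 35.1 CPM in exposed knockout and 22.5 CPM in exposed control epidermis. Mpo went the other way, with means of 0.449 CPM in the knockout and 1.72 CPM in the control. The 8 platelet markers summed to 5.63 to 6.71 CPM in exposed knockout and 4.77 to 5.97 CPM in exposed control libraries. Nearly all of that was Itga2b, at a mean of 5.66 CPM in exposed knockout and 4.71 CPM in exposed control epidermis. Ly6g, which defines neutrophils, had 0 counts in exposed knockout libraries, and the platelet marker Gp9 had 0 counts in both exposed groups. Fibroblast markers summed to 38.6 to 50.7 CPM in exposed knockout and 23.5 to 39.3 CPM in exposed control libraries. Thy1 made up most of these sums, with means of 30.2 CPM in exposed knockout and 21.6 CPM in exposed control epidermis. The 10 Langerhans cell markers stood at 695 to 882 CPM in exposed knockout and 345 to 529 CPM in exposed control libraries, and did not overlap. Among keratinocyte markers, Krt14 was at 3011 to 4893 CPM in exposed knockout and 1039 to 2872 CPM in exposed control libraries. Krt5 was at 737 to 807 CPM in the knockout and 266 to 487 CPM in the control. Lor went the other way, at 5884 to 6882 CPM in the knockout and 9495 to 14195 CPM in the control. So did Krtdap, at 3689 to 4743 CPM in the knockout and 5028 to 6702 CPM in the control. The other keratinocyte markers overlapped between the exposed groups. Hair follicle genes ranged widely within each exposed group, at 268 to 4887 CPM in knockout and 1325 to 6428 CPM in control libraries. At an equal depth of 30 M counts, 19112 to 21429 genes were detected in exposed knockout and 16889 to 19214 in exposed control libraries. Mitochondrial transcripts took 5.44 to 5.99% of counts in exposed knockout and 5.24 to 9.65% in exposed control libraries. Exposed control replicate 2, with the highest Thbd, was at 19214 genes and 5.24%. The part of any of these in the result was not tested.

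Procr, the receptor that presents protein C to thrombomodulin, rose with UVB in both genotypes. It stood at 15.03, 21.6, 17.4 and 15.4 CPM in exposed knockout and 3.10, 1.80, 1.21 and 1.47 CPM in unexposed knockout epidermis. In control epidermis it stood at 18.7, 11.03, 9.99 and 3.68 CPM after UVB and 2.28, 0.400, 0.940 and 2.48 CPM unexposed. Exposed and unexposed libraries did not overlap in either genotype. The rise was 9.10-fold in the knockout (log2 fold change 3.19, SE 0.51, adjusted p = 0.000114) and 7.05-fold in the control (2.82, SE 0.51, adjusted p = 0.000284). Between genotypes, the log2 fold change of knockout over control was 0.68 (SE 0.47) after UVB, given as a description, and 0.31 (SE 0.49, adjusted p = 0.94) unexposed. Thbd and Procr act in 1 complex. Their log2 fold changes of exposed knockout over exposed control, -4.76 for Thbd and 0.68 for Procr, had opposite signs. The exposed knockout and control libraries overlapped for Procr, and its value ran from 0.36 to 1.06 with single libraries left out. Neither value carries a test, and Thbd was selected on this contrast.

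F3, which encodes the starter of clotting, was the member with the highest level per length in unexposed epidermis and fell with UVB in both genotypes. Its levels were 39.3, 44.3, 54.9 and 53.7 CPM in exposed knockout epidermis, against 88.2, 80.6, 100.9 and 76.6 CPM in unexposed knockout epidermis. In control epidermis they were 31.8, 49.9, 36.2 and 28.3 CPM after UVB, against 85.9, 102, 120 and 173 CPM unexposed. No exposed library reached the lowest unexposed one of its genotype. The fall was 1.80-fold in the knockout (log2 fold change -0.85, SE 0.20, adjusted p = 0.00194) and 3.29-fold in the control (-1.72, SE 0.20, adjusted p = 1.4e-06). Unexposed knockout over control gave a log2 fold change of -0.47 (SE 0.19) and did not pass the test (adjusted p = 0.283, unadjusted p = 0.024). The described values with the exposed libraries were 0.39 (SE 0.20) for knockout over control after UVB and 0.87 (SE 0.28) for the knockout response minus the control response.

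The inhibitors of the tissue factor complex were at the edge of detection. Tfpi had 18, 4, 4 and 6 counts in exposed knockout and 0, 0, 0 and 6 counts in exposed control libraries. Unexposed, it had 0, 16, 1 and 4 counts in the knockout and 11, 8, 0 and 10 counts in the control. Tfpi2, a related inhibitor of plasmin and other serine proteases, had 2, 0, 6 and 4 counts in exposed knockout libraries and 6, 6, 0 and 0 in unexposed knockout libraries. No count of Tfpi2 fell in the 8 control libraries, which allows up to 0.0187 CPM over the exposed control group and 0.0170 CPM over the unexposed one (3 counts over the group, counting error only). These 2 limits use library totals without the TMM correction, unlike the other CPM. With TMM factors of 0.867 to 0.907 in exposed control libraries, the first limit is somewhat too low on the TMM scale. Neither gene passed the filter on low counts, so edgeR values are given for the other 7.

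Plaur, the urokinase receptor, was a low transcript that rose with UVB in both genotypes. It stood at 1.51, 3.73, 1.28 and 2.79 CPM in exposed knockout epidermis and 0.441, 0.814, 0.563 and 0.344 CPM in unexposed knockout epidermis. The control had 1.72, 2.56, 3.78 and 3.68 CPM after UVB and 0.263, 0.141, 0.425 and 0.146 CPM unexposed. No exposed library overlapped the unexposed ones of its genotype, though the unexposed control values rest on 6 to 14 counts per library. The rise was 4.27-fold in the knockout (log2 fold change 2.09, SE 0.54, adjusted p = 0.00474) and 12.1-fold in the control (3.60, SE 0.58, adjusted p = 5.99e-05). Unexposed knockout over control gave 1.17 (SE 0.55), which did not pass (adjusted p = 0.393, unadjusted p = 0.047). With the exposed libraries, knockout over control was described by -0.33 (SE 0.52) and the knockout response minus the control response by -1.50 (SE 0.75).

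Serpinb2, the inhibitor of both plasminogen activators, was the most abundant member per length after UVB. Its levels were 119, 151, 79.4 and 344 CPM in exposed knockout and 39.3, 22.3, 40.1 and 19.5 CPM in unexposed knockout epidermis. The control had 212, 368, 220 and 184 CPM after UVB and 30.6, 28.7, 27.0 and 27.9 CPM unexposed. The groups did not overlap in either genotype, and the unexposed control libraries had an SD of 1.56 CPM. UVB raised Serpinb2 5.72-fold in the knockout (log2 fold change 2.51, SE 0.42, adjusted p = 0.000373) and 8.61-fold in the control (3.11, SE 0.43, adjusted p = 7.09e-05). Exposed knockout replicate 4, at 344 CPM, weighed on the first value, which was 3.69-fold without it (adjusted p = 0.000117). Unexposed knockout over control was 0.09 (SE 0.40, adjusted p = 0.987). After UVB it was described by -0.50 (SE 0.39), and by -1.07 without exposed knockout replicate 4. The knockout response minus the control response was -0.59 (SE 0.56), and -1.17 without that library. Serpinb10, with which it shares 291 exon bases, had 6421 counts over all libraries and did not pass in either UVB comparison (log2 fold change -0.60, adjusted p = 0.148 in the knockout, and 0.65, adjusted p = 0.108 in the control).

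The plasminogen activators themselves did not pass the test with UVB in either genotype. Plau, which encodes urokinase, stood at 24.8, 31.4, 27.1 and 22.5 CPM in exposed knockout epidermis, against 12.1, 15.8, 11.6 and 8.20 CPM in exposed control epidermis. Unexposed, it stood at 31.5, 30.6, 25.7 and 10.2 CPM in the knockout and 18.9, 17.5, 8.25 and 17.9 CPM in the control. After UVB every knockout library was above every control library, and unexposed the groups overlapped through knockout replicate 4. Mitochondrial transcripts took 10.2% of counts in that library and 8.57% in unexposed control replicate 3, the lowest of their groups for Plau. They took 5.44 to 5.99% in exposed knockout and 5.24 to 9.65% in exposed control libraries. The part of this in the levels of Plau was not tested. The log2 fold change of Plau with UVB was 0.11 (SE 0.30, adjusted p = 0.838) in the knockout and -0.39 (SE 0.30, adjusted p = 0.342) in the control. Unexposed knockout over control gave 0.65 (SE 0.30, adjusted p = 0.37). With single libraries left out, this value ran from 0.46 without control replicate 3 (adjusted p = 0.704) to 0.93 without knockout replicate 4. Only the last passed (adjusted p = 0.0432). Exposed knockout over exposed control was described by 1.15 (SE 0.30), a 2.22-fold higher level in the knockout, and the knockout response minus the control response by 0.50 (SE 0.42).

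Plat, which encodes tissue plasminogen activator, stayed between 2.31 and 9.96 CPM in all 16 libraries. Its levels were 9.96, 8.22, 9.63 and 7.81 CPM in exposed knockout and 6.33, 5.98, 5.99 and 6.72 CPM in unexposed knockout epidermis. The control had 6.76, 8.28, 2.31 and 7.65 CPM after UVB and 7.76, 5.09, 5.88 and 8.21 CPM unexposed. The knockout libraries did not overlap between exposed and unexposed, yet the log2 fold change of 0.51 (SE 0.29) did not pass (adjusted p = 0.205). With UVB in the control it was -0.11 (SE 0.29, adjusted p = 0.814), and for unexposed knockout over control -0.11 (SE 0.29, adjusted p = 0.974). With the exposed libraries, knockout over control was described by 0.51 (SE 0.29) and the knockout response minus the control response by 0.62 (SE 0.41).

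**Figure D2:**
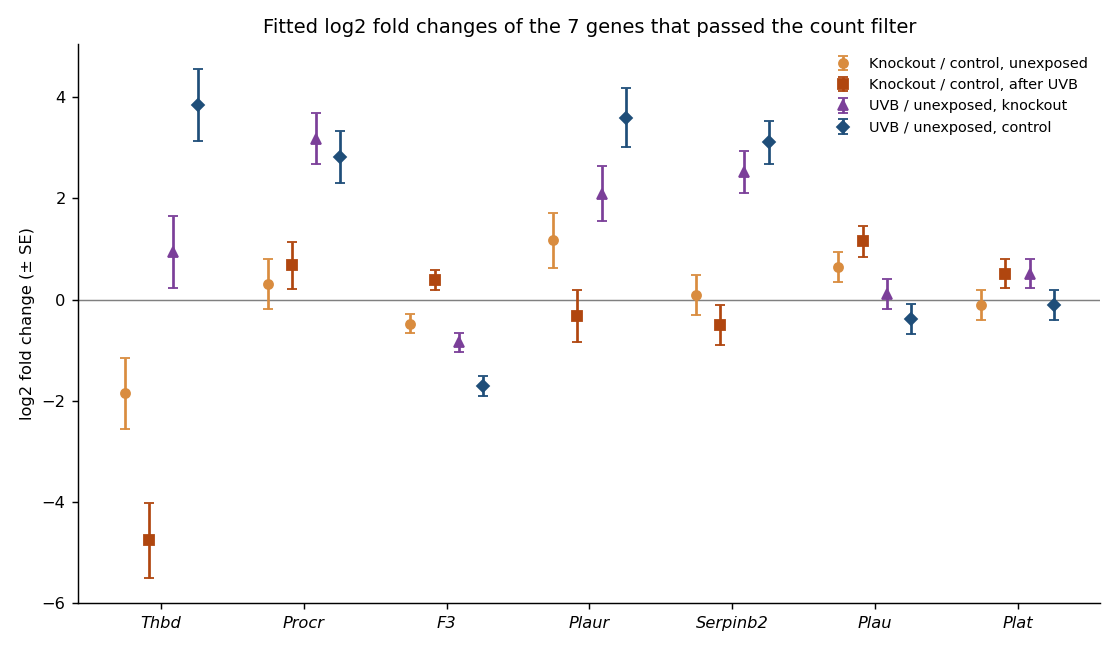
Fitted log2 fold changes (y axis; points, with bars of 1 SE) of the 7 genes that passed the count filter, for knockout over control unexposed and after UVB and for UVB over unexposed in each genotype. Procr, Plaur and Serpinb2 lie above 0 and F3 below 0 in both UVB comparisons, and Thbd lies at 3.85 in the control and 0.94 in the knockout.

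Counted together, 3 of the 6 members tested with UVB rose (Procr, Plaur and Serpinb2) and 1 fell (F3) in knockout epidermis, and the same 4 genes changed in the same directions in control epidermis. Of all genes tested, 18.1% rose and 14.1% fell in the knockout, and 17.7% rose and 18% fell in the control. The median log2 fold change of the 6 was 1.30 in the knockout and 1.36 in the control, beside 0.01 in the knockout and -0.02 in the control over all genes tested. A gene passes the filter on low counts only if it is detected in some group, and 2 of the 9 did not pass. Of the 7 members tested in unexposed knockout against unexposed control, 0 passed with edgeR, 4 had an unadjusted p under 0.05 (Thbd, F3, Plau and Plaur) and 0 passed with DESeq2. Of all genes tested, 12.4% had an unadjusted p under 0.05 there. In that comparison 0.964% of all genes were higher and 1.14% lower, and with upper-quartile scaling 1.01% were higher and 0.767% lower. In exposed knockout against exposed control, which the selection of Thbd used, 2.36% of all genes were higher and 2.32% lower. The difference between the UVB responses passed for 0% of genes in the higher and 0% in the lower direction by edgeR, where 1043 genes had an unadjusted p under 0.05 and DESeq2 called 31.

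The order of the members by level per kilobase of exon changed with UVB. In exposed knockout epidermis it was Serpinb2 (73.9 ± 50.1 CPM per kb), F3 (19.0 ± 2.98), Plau (11.2 ± 1.61), Procr (8.55 ± 1.49), Plat (1.43 ± 0.169), Plaur (0.890 ± 0.440) and Thbd (0.242 ± 0.185; SD, n = 4). In exposed control epidermis it was Serpinb2 (105 ± 35.3 CPM per kb), F3 (14.5 ± 3.74), Thbd (6.54 ± 4.77), Procr (5.35 ± 3.04), Plau (5.04 ± 1.31), Plaur (1.12 ± 0.375) and Plat (1.00 ± 0.432). By these means Thbd stood last of these 7 in the exposed knockout and behind only Serpinb2 and F3 in the exposed control. Thbd, Procr and Plau in the exposed control lay within an SD of each other. Thbd was at 13.7 CPM per kb in exposed control replicate 2, the library with 50.9 CPM. In exposed control replicates 1 and 3 Thbd (4.21 and 4.63) lay below Procr (9.23 and 4.92) and Plau (5.13 and 4.89). In replicate 4 Thbd (3.64) lay above both (1.81 and 3.47). Unexposed, F3 led in both genotypes, with 34.3 ± 4.22 CPM per kb in the knockout and 47.6 ± 14.98 in the control, and Serpinb2 followed with 12.9 ± 4.64 and Plau with 10.4 ± 4.18 in the knockout, whose spreads overlap. In unexposed control epidermis Serpinb2 stood at 12.2 ± 0.663 and Plau at 6.60 ± 2.09 CPM per kb. Plat, Procr, Thbd and Plaur lay at or under 1.08 CPM per kb in both unexposed groups. Thbd was last of the 7 in unexposed knockout epidermis too, so its place in the knockout was the same with and without UVB. It stood there at 0.127 ± 0.0860 CPM per kb, beside Plaur at 0.206 ± 0.0777, and the spreads overlap. In unexposed control epidermis Thbd, at 0.457 ± 0.248, was above only Plaur, at 0.0931 ± 0.0509.

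The profile of Thbd over the 16 libraries was most like those of Sdr9c7, Arhgap17, Atp6v0d1, Tmem43 and Smpd1, by Pearson's r of log2 CPM, among 13192 genes that averaged 1 CPM or more. Their r values were 0.94, 0.94, 0.93, 0.92 and 0.92. Sdr9c7 encodes a dehydrogenase of the skin barrier lipids, Smpd1 acid sphingomyelinase and Atp6v0d1 a subunit of the vacuolar proton pump. Sdr9c7 averaged 328 CPM in exposed knockout and 547 CPM in exposed control epidermis, and Smpd1 averaged 190 CPM in exposed knockout and 396 CPM in exposed control epidermis. Sdr9c7 was at 272 to 389 CPM in exposed knockout and 467 to 704 CPM in exposed control libraries, so the groups did not overlap. Among the other members, r with Thbd was 0.60 for Serpinb2, 0.43 for Plaur, 0.23 for Procr, -0.28 for Plat, -0.42 for F3 and -0.64 for Plau. Serpinb2 was the nearest member and ranked 1033 among all genes. These are descriptions over 16 libraries that share 4 groups, and they follow the group in which Thbd was high.

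**Figure D3:**
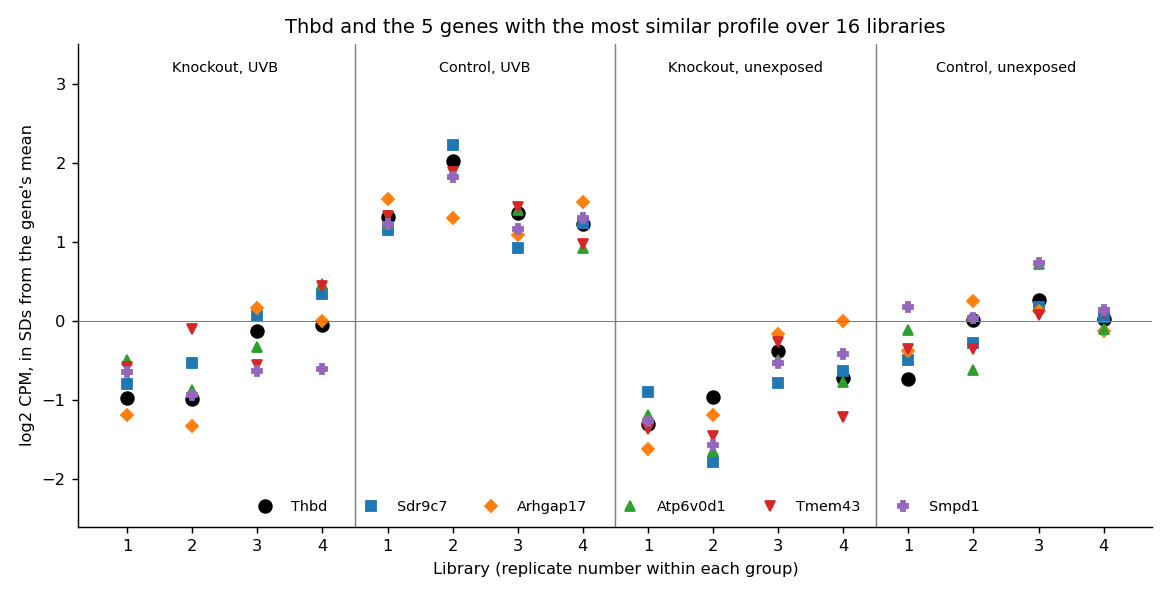
log2 CPM of Thbd (black) and of the 5 genes with the highest correlation with it, each in SDs from its own mean over the 16 libraries (y axis), by library (x axis) in the 4 groups. All 6 genes are highest in the 4 exposed control libraries, where Thbd reached 13.6 to 50.9 CPM.

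Genes of the clotting cascade outside the set were read from a list of 33, of which 23 passed the filter on low counts. With UVB, 2 rose and 3 fell in knockout epidermis and 2 rose and 4 fell in control epidermis. Over all genes tested, 18.1% rose and 14.1% fell in the knockout, and 17.7% rose and 18% fell in the control. The median log2 fold change of the list was -0.09 in the knockout and -0.43 in the control. F12, which encodes the factor that starts the contact pathway, averaged 7.83 ± 2.68 CPM in exposed and 2.53 ± 1.09 CPM in unexposed knockout epidermis. In control epidermis F12 averaged 13.2 ± 5.62 CPM after UVB and 1.85 ± 0.671 CPM unexposed. Its rise was 3.11-fold in the knockout (adjusted p = 0.00162) and 7.09-fold in the control (adjusted p = 8.92e-06). Mcfd2, a factor for the secretion of clotting factors V and VIII, rose 1.69-fold in the knockout (adjusted p = 0.000435) and 2.04-fold in the control (adjusted p = 1.7e-05).

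Gas6, a vitamin K-dependent ligand of the TAM receptors, averaged 46.8 ± 8.59 CPM in exposed and 108 ± 20.6 CPM in unexposed knockout epidermis. In control epidermis Gas6 averaged 41.9 ± 5.76 CPM after UVB and 116 ± 10.4 CPM unexposed, and it fell in both genotypes (log2 fold change -1.21, SE 0.16, adjusted p = 6.61e-06 in the knockout and -1.46, SE 0.16, adjusted p = 5.28e-07 in the control). F2rl1, the protease-activated receptor that tissue factor complexes and trypsin-like proteases cut, fell 1.95-fold in the knockout (adjusted p = 0.00419) and 2.60-fold in the control (adjusted p = 0.000186). Pros1, which encodes protein S, the cofactor of activated protein C, fell 2.33-fold in the knockout (adjusted p = 4.7e-05). In the control its fall of 1.46-fold passed (adjusted p = 0.0289) and did not without either of control replicates 3 and 4 or exposed control replicates 1 and 2, singly (adjusted p = 0.0501 to 0.0683). Vwf, the platelet-tethering factor of endothelium, fell in the control (log2 fold change -2.16, SE 0.63, adjusted p = 0.0103), with 0.587 ± 0.689 CPM after UVB and 2.62 ± 0.992 CPM unexposed. In the knockout its value was -1.24 (SE 0.60, adjusted p = 0.128), and the difference between the responses did not pass (0.92, SE 0.85, adjusted p = 0.931). Of the 23, 0 passed between genotypes with edgeR, unexposed (0 at an unadjusted p under 0.05, 0 with DESeq2) or after UVB (3 at an unadjusted p under 0.05, 1 with DESeq2). The share of all genes tested with an unadjusted p under 0.05 was 12.4% unexposed and 20.3% after UVB.

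Among partners of the plasminogen system, 17 of 22 listed genes were tested. With UVB, 4 rose and 2 fell in knockout epidermis, and 5 rose and 2 fell in control epidermis, with medians of 0.27 in the knockout and 0.17 in the control. The shares of all genes tested were 18.1% risen and 14.1% fallen in the knockout, and 17.7% risen and 18% fallen in the control. S100a10, the annexin A2 partner that binds plasminogen at the cell surface, averaged 133 ± 14.7 CPM in exposed and 69.8 ± 6.99 CPM in unexposed knockout epidermis. In control epidermis S100a10 averaged 103 ± 28.8 CPM after UVB and 56.6 ± 4.82 CPM unexposed. It rose 1.91-fold in the knockout (adjusted p = 0.000128) and 1.83-fold in the control (adjusted p = 0.000214). Eno1, a glycolytic enzyme that also binds plasminogen, rose 1.69-fold in the knockout (adjusted p = 0.0028) and 1.71-fold in the control (adjusted p = 0.00206). St14, which encodes matriptase, an epidermal protease that can activate urokinase, rose 1.38-fold in the knockout (adjusted p = 0.00336) and 1.44-fold in the control (adjusted p = 0.00112).

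Mrc2, a collagen receptor that associates with urokinase and its receptor, rose 1.88-fold in the knockout (adjusted p = 0.00254) and had a log2 fold change of 0.49 (SE 0.22, adjusted p = 0.088) in the control. Plgrkt, a plasminogen receptor, fell 1.52-fold in the knockout (adjusted p = 0.00175) and 1.32-fold in the control (adjusted p = 0.0294). The control call of Plgrkt ended without control replicate 1, 3 or 4 or exposed control replicate 1 (adjusted p = 0.0543 to 0.0853). Lrp1, the endocytic receptor that clears activator and inhibitor complexes, fell 1.36-fold in the knockout (adjusted p = 0.0147) and 1.43-fold in the control (adjusted p = 0.00449). The knockout call of Lrp1 ended without exposed knockout replicate 1 (adjusted p = 0.0557).

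Between genotypes, Itga5, which encodes the alpha chain of a fibronectin receptor, passed in unexposed epidermis, with 7.12 ± 2.31 CPM in the knockout and 2.58 ± 0.391 CPM in the control (log2 fold change 1.46, SE 0.34, adjusted p = 0.0278). That call ended on leaving out any of 7 of the 8 unexposed libraries singly (adjusted p = 0.0531 to 0.0891), all but knockout replicate 3. After UVB 0 of the 17 passed with edgeR, 5 had an unadjusted p under 0.05 and 1 passed with DESeq2. Over all genes tested, 20.3% had an unadjusted p under 0.05 by edgeR in that comparison.

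Serpinb2 belongs to the clade B serpins, intracellular protease inhibitors that are plentiful in epidermis. Counts within this family of close copies are uncertain where reads match more than 1 of them. Of 16 others listed, 14 were tested, and with UVB 5 rose and 2 fell in each genotype, with medians of 0.36 in the knockout and 0.44 in the control. Beside this, 18.1% of all genes tested rose and 14.1% fell in the knockout, and 17.7% rose and 18% fell in the control. Between genotypes, 0 rose and 2 fell after UVB, and 1 rose and 2 fell in unexposed epidermis. Over all genes tested, 2.36% were higher and 2.32% lower after UVB, and 0.964% were higher and 1.14% lower unexposed. Serpinb1a, an inhibitor of neutrophil elastase, was at 12.6, 24.7, 11.46 and 29.2 CPM in exposed knockout and 19.2, 18.6, 16.4 and 13.3 CPM in exposed control libraries. Unexposed, Serpinb1a was at 9.71, 7.41, 5.47 and 4.28 CPM in the knockout and 1.60, 1.15, 2.09 and 1.09 CPM in the control. It was 4.56-fold higher in unexposed knockout than control epidermis (log2 fold change 2.19, SE 0.32, adjusted p = 0.000726). With UVB it rose 2.89-fold in the knockout (adjusted p = 0.000525) and 11.4-fold in the control (adjusted p = 1.37e-07). The knockout response minus the control response of Serpinb1a was -1.98 (SE 0.43) and did not pass with edgeR (adjusted p = 0.328), though DESeq2 called it.

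Serpinb7 and Serpinb13, serpins of keratinocytes, were lower in the knockout under both conditions. Serpinb7 was at 187, 166, 189 and 204 CPM in exposed knockout and 311, 391, 360 and 318 CPM in exposed control libraries (log2 fold change -0.89, SE 0.16, adjusted p = 0.00363). Serpinb13 was at 6.35, 1.58, 4.02 and 3.67 CPM in exposed knockout and 12.4, 11.6, 9.50 and 11.4 CPM in exposed control libraries (-1.52, SE 0.30, adjusted p = 0.00518). For both genes the exposed groups did not overlap. Unexposed, the log2 fold changes were -0.66 (SE 0.16, adjusted p = 0.0391) for Serpinb7 and -1.13 (SE 0.29, adjusted p = 0.0452) for Serpinb13. Both unexposed calls ended under 2 other scalings and without most single libraries, with adjusted p up to 0.176 for Serpinb7 and 0.166 for Serpinb13. With UVB both fell, Serpinb7 by log2 -0.74 in the knockout (adjusted p = 0.00131) and -0.52 in the control (adjusted p = 0.0171), and Serpinb13 by -1.49 in the knockout (adjusted p = 0.000513) and -1.10 in the control (adjusted p = 0.00531). The Serpinb7 call in the control ended without control replicate 3 or 4 (adjusted p = 0.0593 and 0.0594). Serpinb6c rose 4.34-fold in the knockout (adjusted p = 0.00267) and 4.91-fold in the control (adjusted p = 0.0015). Serpinb9 rose 3.80-fold in the knockout (adjusted p = 0.00694) and 3.71-fold in the control (adjusted p = 0.00749). Serpinb11 rose 3.003-fold in the control (adjusted p = 0.000396), and in the knockout its log2 fold change was 0.69 (SE 0.29, adjusted p = 0.0784).

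**Figure D4:**
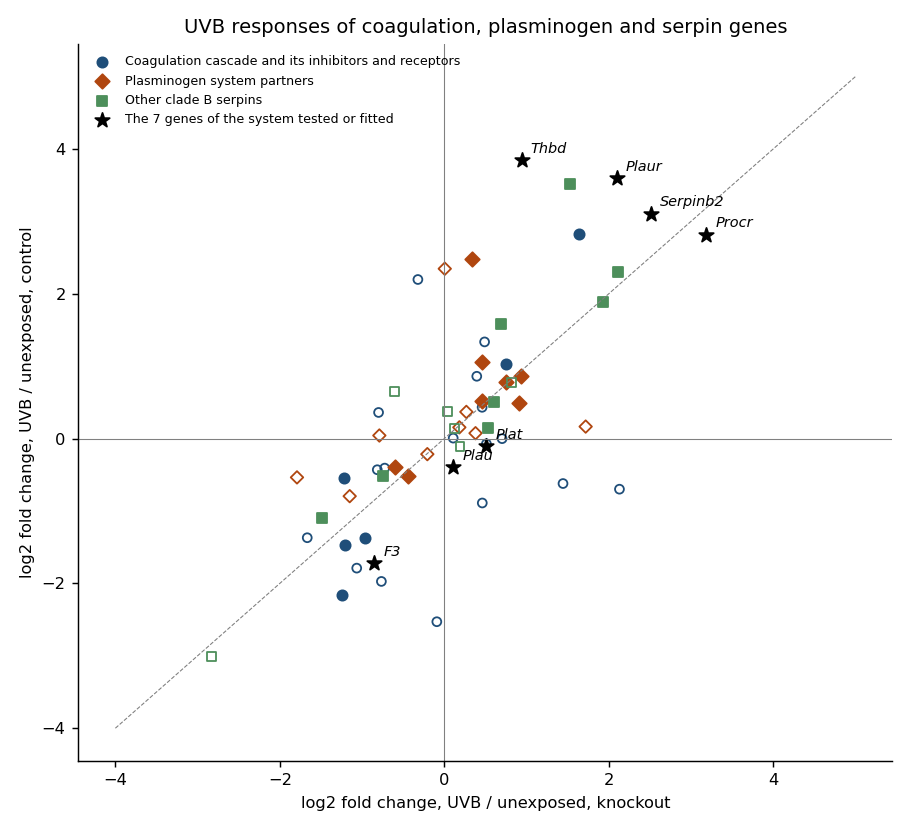
UVB responses of the 54 tested genes of the 3 lists and of the 7 fitted members (stars), as log2 fold change of UVB over unexposed in knockout (x axis) and in control epidermis (y axis). Filled list symbols passed the test in at least 1 genotype; the dashed line marks equal responses, and Thbd lies farthest above it among the stars, at 0.94 on x and 3.85 on y.

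Across the 3 lists, 18 genes changed with UVB in the knockout and 20 in the control, of 54 tested. That is 33.3% in the knockout and 37% in the control, near the shares of all genes tested that changed, 32.2% in the knockout and 35.8% in the control. The 16 changed in both make 88.9% of the knockout calls and 80.0% of the control calls, and all 16 had the same direction in both genotypes. The 2 UVB comparisons share no libraries. The matching overlap over all genes is not given here, so the overlap cannot be called particular to these lists. Called in the knockout but not in the control were Mrc2 and Serpinb5. The call of Serpinb5 (adjusted p = 0.0424) ended under both other scalings, with no filter, with only the groups compared and without any of 5 single libraries (adjusted p = 0.051 to 0.231). Those called in the control but not in the knockout included Itga5, Serpinb11 and Vwf. In the knockout, Serpinb11 was called by DESeq2 (adjusted p = 0.0492), with only the groups compared (adjusted p = 0.0434) and without knockout replicate 1, and Vwf with only the groups compared (adjusted p = 0.0174). The control call of Itga5 (adjusted p = 0.0191) ended with only the groups compared and without control replicate 2 or exposed control replicate 1 or 2 (adjusted p = 0.053 to 0.117). A test of the difference between the responses did not pass for any of the 54 with edgeR, and with DESeq2 1 did, Serpinb1a. At an unadjusted p under 0.05 there were 2 of the clotting list, 0 of the plasminogen list and 3 of the serpins, beside 5.88% of all genes tested.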

How the data were processed

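Per the labels, total RNA from heat-shock isolated epidermis was made into libraries with the NEBNext Ultra Directional kit. The authors deposited 1 table of read counts per Ensembl gene, not normalized, since its values are whole and the column totals differ. The submitters' processing notes name FastQC, STAR, HTSeq and DESeq2. Not given in the sources used here are their versions, the genome build and any use of strand in counting. Symbols and positions came from GENCODE M21 (GRCm38), and promoter sequences from RefSeq (GRCm38.p6).

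In R 4.3.3, edgeR 4.0.16 took the counts of all 16 libraries (filterByExpr, TMM, robust quasi-likelihood fit, 1 mean per group). Two-sided tests were adjusted by Benjamini-Hochberg over 17741 genes, with a threshold of 0.05. The SE is the size of the log2 fold change over the square root of F. Alternatives were DESeq2 1.42.0, other scalings, no filter, only the groups compared, and each library left out. The fit was tested on simulated data. Of counts from 2 to 101, 68.8% were even (50% of those integers are), for which the sources give no reason, so counting limits may be too narrow. Replicates differed by more than counting noise (lowest chi-square per degree of freedom 41.75).

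The members and lists were chosen with earlier results of these data known. Named genes were the 9 members, Cebpb, up to 3 genes per list, comparison and direction with the smallest p among those called, and the 5 genes most like Thbd. Serpinb10 was added after its values were seen, and 1 listed gene is not reported here. Figures used matplotlib 3.10.9.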

Additional observations from a re-analysis of the deposited data

Results flagged for a closer look

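Among 34 sets of 4 libraries, 3 had 1 library far from the other 3, and chance does this in about 1 set in 20. Thbd stood at 50.9 CPM in exposed control replicate 2, where the other exposed control libraries held 13.6 to 17.2 CPM. Tfpi stood at 0.209 CPM in exposed control replicate 4, the only library of that group with a count of it. Plau stood at 8.25 CPM in unexposed control replicate 3, where the other unexposed control libraries held 17.5 to 18.9 CPM.

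For F3 and Plat, the knockout libraries all lay on one side of the control mean when exposed and on the other side when unexposed. The knockout minus control log2 difference of F3 was 0.39 after UVB and -0.47 unexposed, which are 0.87 apart. For Plat it was 0.51 after UVB and -0.11 unexposed, 0.62 apart. Neither difference was tested.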

How the results depend on the processing

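Of 504 alternative values for 35 log2 fold changes of the members, 497 kept their sign and 7 took the other, all on leaving out 1 library. The ranges of those results over single libraries left out were -0.042 to 0.65 for Procr, -0.22 to 0.0019 for Plat and -0.077 to 0.27 for Serpinb2 in unexposed knockout over control. They were -0.33 to 0.17 for Plat with UVB in the control and -0.20 to 0.25 for Plau with UVB in the knockout. None of these 5 had passed the test. The 4 members called with UVB in each genotype were the same 4 under every alternative run. The members called in unexposed epidermis numbered 0, and 0 to 1 with a library left out (Plau, without knockout replicate 4).

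List genes called in unexposed knockout against control numbered 4, but 2 with RLE size factors, 2 with upper-quartile scaling and 1 to 3 with a library left out. After UVB they numbered 2, but 5 with DESeq2 and 2 to 6 with a library left out, and for the difference of responses 0, but 1 with DESeq2. The cause was not tested. Over all genes, edgeR called 373 unexposed and 830 after UVB between genotypes, and DESeq2 742 and 1493. No paired analysis was possible because the labels give no replicate numbers shared by the groups. Counts of Tfpi and Tfpi2 were too few to fit, and Plaur in unexposed control libraries rests on 6 to 14 counts.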
